A study of Homo sapiens with 2 samples.

Results

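Heat shock proteins and J-domain chaperones were described in D407 cells, an established human cell line that the labels give as retinal pigment epithelium (RPE). The members were the rows of the deposited gene table whose symbol belongs to the HSPA, HSPB, HSPD, HSPE, HSPH, HSP90A, DNAJA, DNAJB or DNAJC series, together with BAG3, HSF1, CHORDC1 and CRYAB. The endoplasmic reticulum chaperones HSPA5, DNAJB9, DNAJB11, DNAJC3 and DNAJC10 were left out. This gave 80 of 37364 rows, of which 70 are genes, 4 are pseudogenes in RefSeq (HSP90AB4P, HSPA7, DNAJB3 and DNAJA1P5), 3 are readthrough rows that join neighbouring genes (HSPE1-MOB4, DNAJC25-GNG10 and HSPB2-C11orf52) and 3 are antisense rows (DNAJC9-AS1, DNAJC27-AS1 and DNAJB8-AS1). RNA selected by its polyA tail was sequenced in 2 libraries. In 1 of them the cells had received clusterin, itself a chaperone but one that works outside the cell, and the other came from cells the labels call control. The study asked which coding and noncoding RNAs change with clusterin. The sources used here do not give the dose or duration of clusterin, nor what the control received. With 1 library per group no difference has a replicate check, and every interval below covers counting error only.

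Chaperones bind unfolded protein and keep it from aggregating. HSP70 proteins bind and release their clients in a cycle driven by ATP, J-domain proteins (the DNAJ genes) bring clients and start that hydrolysis, and exchange factors of the HSP110 kind reset the cycle. HSP90 takes over proteins that are nearly folded, the HSPD1 and HSPE1 chaperonin folds proteins inside mitochondria, and small heat shock proteins hold unfolded protein until HSP70 arrives. HSF1 is the transcription factor that binds heat shock elements and raises many of these genes when protein folding fails. These genes are not all cytosolic: HSPA9, HSPD1, HSPE1, DNAJA3, DNAJC15, DNAJC19 and DNAJC30 are mitochondrial, and HSPA13, DNAJC1, DNAJB12 and DNAJB14 belong to the endoplasmic reticulum.

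Positions are those of the deposited table. The submitters' processing notes name hg19, but 73 of the 80 rows start within 2000 bases of their RefSeq start in GRCh38, so the positions are given as GRCh38.

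The deposited levels carry no named unit and were read here, from their values, as RPKM. These are reads scaled by transcript length and library size, so the levels can be compared between genes. Whole reads could be worked back from them, at library totals of 38236990 (control) and 33177096 (clusterin). At 1 RPKM, each kilobase carried 38.2 and 33.2 reads. These may be single reads or pairs. Of 12 RPE markers, 7 (RPE65, RLBP1, LRAT, TTR, OTX2, TYR and MERTK) were listed at 0 in both libraries and 2 were measured, MITF at 9.70 RPKM (control) and 9.88 (clusterin) and BEST1 at 2.14 and 1.73. Of 6 simple epithelial markers, 4 keratins were measured, KRT7 highest at 407 and 420, while EPCAM was listed at 0 and CDH1 stood at 0.016 and 0.025. Of 8 fibroblast and muscle markers, 3 were measured, LUM at 46.2 and 45.7, DCN at 25.9 and 24.9 and COL1A1 at 1.15 and 0.92, and the other 5, COL1A2, COL3A1, PDGFRB, ACTA2 and DES, lay below 1. No leukocyte, endothelial or neuronal marker of the lists reached a mean of 1 RPKM. In bulk RNA, fewer cells of a type and less RNA per cell cannot be told apart.

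Of the 80 rows, 9 were listed at 0 in both libraries, 20 lay above 0 with a mean below 1 RPKM, and 51, called measured, averaged 1 RPKM or more. Of these 51, 25 lay between 1 and 10 RPKM, 26 reached 10 RPKM and 4 of those reached 100. HSPA2, at 1.37, was just inside the minimum and DNAJC6, at 0.962, just outside it. The rows listed at 0 were DNAJA1P5, DNAJB3, DNAJB8, DNAJB8-AS1, DNAJC5B, DNAJC5G, HSPA7, HSPB2 and HSPB2-C11orf52. The ribosomal protein gene RPS18 had the same listing although all cells need it, so a 0 here is reported as a listing only. Reads were recovered for all 71 rows above 0. They made up 0.472% of control reads (95% exact Clopper-Pearson interval 0.470 to 0.474) and 0.454% of clusterin reads (0.452 to 0.456), and the 5 genes with the highest levels held 57.6% and 58.1% of them. The median clusterin to control ratio over all genes with at least 100 reads was 0.950, so the lower share is not particular to these rows. Readthrough rows and the genes they cover may hold the same reads, so the sums and their intervals are approximate.

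**Figure D1:**
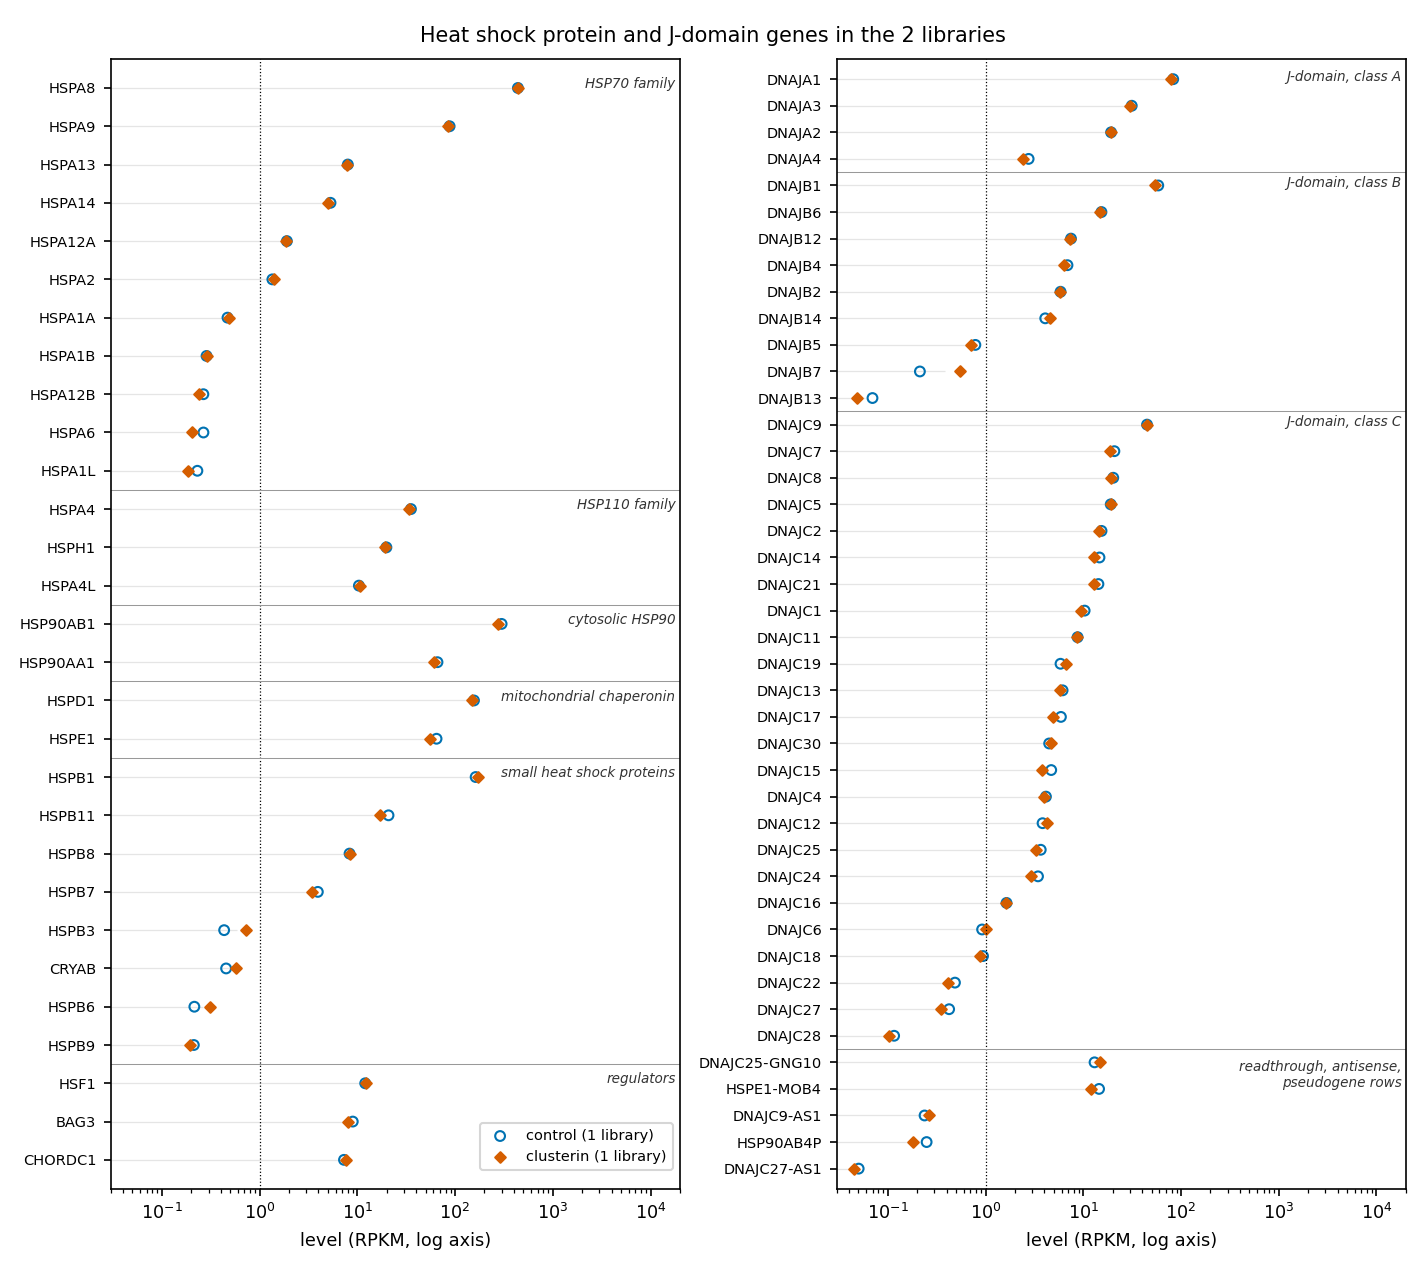
Level of each heat shock protein and J-domain row above 0 (RPKM, log axis) in the control library (open blue circles) and the clusterin library (orange diamonds), grouped by family, with the minimum mean of 1 RPKM as a dotted line. HSPA8, HSP90AB1, HSPB1 and HSPD1 stand above 100 RPKM in both libraries, and the symbols of most genes overlap.

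HSP70 RNA was mostly that of HSPA8, the constitutive cytosolic HSP70. HSPA8 (chr11:123057492-123062366, minus strand) stood at 439 RPKM (control) and 445 RPKM (clusterin), from 38942 and 34246 reads. It made up 80.6% and 81.4% of the summed level of the 12 family members. HSPA9, the mitochondrial HSP70 also called mortalin, came next at 87.9 and 83.9 RPKM. HSPA13 stood at 7.99 and 7.82, HSPA14, which works at the ribosome, at 5.31 and 5.03, HSPA12A at 1.90 and 1.86, and HSPA2, best known from the testis, at 1.35 and 1.39. The order of these 6 measured members was the same in both libraries.

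The stress-inducible HSP70 genes HSPA1A, HSPA1B and HSPA6 were low in both libraries, as was HSPA1L, another gene known mainly from the testis. HSPA1A was deposited at 0.469 and 0.491 RPKM, HSPA1B at 0.286 and 0.289, HSPA6, which is transcribed almost only under stress, at 0.266 and 0.205, and HSPA1L at 0.231 and 0.183. The levels of HSPA1A and HSPA1B depend on the length by which they were divided. The length at which the reads of HSPA1A come out whole and return the deposited p-value was 12145 bases, 5.00 times the 2429 bases that the table lists for it (chr6:31815514-31817942, plus strand, GRCh38). For HSPA1B it was 12601 bases against 2520 (chr6:31827735-31830254, plus strand), again 5.00 times. These genes have no introns, so a transcript cannot be longer than the span. Divided by the span, the same 218 and 198 reads put HSPA1A at 2.35 and 2.46 RPKM, and the 138 and 121 reads of HSPA1B put it at 1.43 and 1.45. On that scale both would be measured, and HSPA8 in the control still stood far above them. The products of HSPA1A and HSPA1B are nearly identical, so reads shared between the copies may be missing from either, and their levels are uncertain. The listed span of HSPA1L (chr6:31809619-31821999, minus strand) covers all of HSPA1A on the other strand. HSPA1L was divided by 12685 bases, above that span of 12381, and HSPA6 by 2652, 1.12 times its span. The transcript length of HSPA1L is not given here and may be far below that span. How far its deposited level is understated cannot be told, so its level is uncertain as well.

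None of these 4 genes differed between the libraries beyond counting error. The clusterin to control ratio of HSPA1A was 1.05, with a 95% counting interval of 0.859 to 1.27, and that of HSPA1B was 1.01 (0.785 to 1.30). A change of the length does not affect these ratios. HSPA6, from 27 and 18 reads, had a ratio of 0.768 (0.399 to 1.45), and HSPA1L, from 112 and 77 reads, 0.792 (0.585 to 1.07).

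The HSP110 genes, whose products free HSP70 of ADP, were all measured. HSPA4 stood at 35.4 and 34.1 RPKM, HSPH1, the heat-inducible member, at 19.8 and 19.1, and HSPA4L at 10.4 and 10.7. HSPH1 had a ratio of 0.964 (0.912 to 1.02), and the intervals of HSPA4 (0.922 to 1.01) and HSPA4L (0.953 to 1.12) also included 1.

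Of the cytosolic HSP90 genes, HSP90AB1, the constitutive form, stood at 299 RPKM in the control and 276 with clusterin, and HSP90AA1, the inducible form, at 66.1 and 61.2. Both were slightly lower in the clusterin library, with ratios of 0.923 (0.908 to 0.938) and 0.926 (0.899 to 0.953). With the median difference of all genes set to 0, the log2 difference of HSP90AB1 went from -0.12 to -0.06 and that of HSP90AA1 from -0.11 to -0.05, and the call of HSP90AA1 described below is lost with the offset removed. HSP90AB1 was 4.53 times as high as HSP90AA1 in control cells and 4.52 times with clusterin. The pseudogene row HSP90AB4P had 27 and 17 reads.

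HSPD1 and HSPE1 encode the ring and the lid of the mitochondrial chaperonin and lie head to head on chromosome 2. Their listed spans (chr2:197486584-197500274, minus strand, and chr2:197499997-197503463, plus strand, GRCh38) overlap by 278 bases at their starts. HSPD1 stood at 156 RPKM (control) and 148 RPKM (clusterin), a ratio of 0.948 (0.925 to 0.971). HSPE1 stood at 64.6 and 55.7 RPKM, from 2355 and 1762 reads, a ratio of 0.862 (0.810 to 0.918). Both were lower with clusterin, but the median ratio over genes with at least 100 reads was 0.950, close to that of HSPD1. With the median difference of all genes set to 0, the log2 difference of HSPD1 went from -0.08 to -0.02, and HSPD1 was not called with the offset removed, while HSPE1 was. The readthrough row HSPE1-MOB4, which covers all of HSPE1, stood at 14.5 and 12.0 RPKM with a ratio of 0.828 (0.777 to 0.881), and MOB4 itself at 3.41 and 2.57. The counting was not given in the sources used here, so reads of HSPE1 may count toward HSPE1-MOB4, and these rows are not independent.

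Among small heat shock proteins, HSPB1, also called HSP27, stood at 162 RPKM (control) and 170 RPKM (clusterin). HSPB1 made up 82.5% and 84.6% of the summed level of the 9 genes on the list. That sum counts HSPB11, described below, so the share of HSPB1 also depends on the level of HSPB11. The ratio of HSPB1, 1.05 (1.01 to 1.09), from 5567 and 5051 reads, was among the few with an interval above 1. HSPB8, the partner of BAG3 in disposing of aggregates, stood at 8.32 and 8.46 RPKM, and HSPB7, known from heart muscle, at 3.94 and 3.47. HSPB11, named for its fold but a subunit of the intraflagellar transport complex of cilia (IFT25 in RefSeq), stood at 20.8 and 17.1 RPKM from 479 and 341 reads, and its ratio of 0.820 (0.712 to 0.945) was among the lowest. CRYAB, the alpha-crystallin B chain of the lens, had 12 and 13 reads (0.454 and 0.567 RPKM), HSPB3 13 and 19, HSPB6 12 and 15, and HSPB9 5 and 4, and the counting interval of each of these 4 included 1. HSPB2, whose span overlaps that of CRYAB by 478 bases at their starts, was listed at 0.

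The regulators stood at moderate levels. The counting intervals of HSF1 and CHORDC1 included 1. That of BAG3 lay below 1 but included 0.950, the median ratio over genes with at least 100 reads, and that of CHORDC1 lay wholly above 0.950. HSF1 stood at 12.0 RPKM in the control and 12.2 with clusterin, a ratio of 1.01 (0.921 to 1.11). BAG3, an HSF1 target that links HSP70 to HSPB8 and autophagy, stood at 8.98 and 8.00, a ratio of 0.891 (0.805 to 0.986). CHORDC1, an HSP90 partner, stood at 7.30 and 7.69, a ratio of 1.05 (0.960 to 1.16).

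The class A J-domain genes, which keep the full bacterial DnaJ layout, were all measured. DNAJA1 stood at 83.3 RPKM (control) and 78.9 RPKM (clusterin) (ratio 0.948, 0.909 to 0.988), the mitochondrial DNAJA3 at 31.4 and 30.2, DNAJA2 at 19.3 and 19.4 and DNAJA4 at 2.76 and 2.41. Of the 11 class B rows, 6 were measured. DNAJB1, the heat-inducible HSP40, led them at 58.5 and 54.5 RPKM (ratio 0.930, 0.892 to 0.970), followed by DNAJB6, a suppressor of aggregation, at 15.4 and 14.7. DNAJB4 stood at 6.90 and 6.40 and DNAJB14, in the endoplasmic reticulum membrane, was the lowest measured class B gene at 4.08 and 4.52. The listed span of DNAJB1 overlaps that of TECR, on the other strand, by 1944 bases, so some of its reads may be shared.

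DNAJB7 showed the widest ratio among the rows above 0, at a level below the minimum. It stood at 0.213 RPKM (control) and 0.550 RPKM (clusterin), from 21 and 47 reads, a ratio of 2.58 (1.51 to 4.54). The gene (chr22:40859549-40862126, minus strand, GRCh38) lies within the listed span of XPNPEP3 on the plus strand, which stood at 1.89 and 1.75 RPKM. Whether the counting used strand was not given, so reads from XPNPEP3 transcripts cannot be told apart from DNAJB7 here. It was singled out from 71 rows after its values were seen.

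Class C holds J-domain proteins with specialised tasks, and 19 of its 26 genes were measured. DNAJC9, a histone chaperone, was highest in both libraries at 44.9 and 44.6 RPKM. DNAJC7, which links HSP70 and HSP90, stood at 20.8 and 18.9, DNAJC8, of the splicing machinery, at 20.3 and 19.3, and DNAJC5, the cysteine-string protein, at 19.1 and 19.2, and the order of these 3 differed between the libraries. The lowest measured gene was DNAJC16, at 1.64 and 1.62. The genes furthest below control were DNAJC15 and DNAJC17. In what follows the interval of the ratio is in brackets. DNAJC15, a J-protein of the mitochondrial import motor, stood at 4.70 and 3.82 RPKM from 499 and 352 reads, a ratio of 0.813 (0.707 to 0.934). DNAJC17, linked to splicing, stood at 5.91 and 4.89 (0.673 to 1.01), DNAJC24, needed for diphthamide synthesis, at 3.44 and 2.91 (0.725 to 0.987), DNAJC14 at 14.7 and 12.9 (0.822 to 0.945) and DNAJC21, of ribosome maturation, at 14.3 and 12.9 (0.861 to 0.953). DNAJC19, of the same import motor as DNAJC15, lay on the other side at 5.85 and 6.69 RPKM, a ratio of 1.14 (0.986 to 1.33). DNAJC12, a partner of aromatic amino acid hydroxylases, stood at 3.83 and 4.28 (0.922 to 1.35).

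The highest difference among measured rows was that of DNAJC25-GNG10, a readthrough row at 13.1 and 15.0 RPKM with a ratio of 1.15 (1.04 to 1.27). It covers DNAJC25, which stood at 3.67 and 3.25 RPKM, and overlaps GNG10, a G protein gamma subunit that stood at 16.0 and 19.3. The row was higher in the clusterin library, as was GNG10, while DNAJC25 was lower, and reads in the shared exons cannot be assigned to 1 of them here.

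Differences were next compared as log2((clusterin RPKM + 1)/(control RPKM + 1)), which understates the change of low genes, over the 13244 genes of the table with a mean of at least 1 RPKM. None of the 51 measured rows was at least 2-fold apart in either direction, against 0.106% of all such genes higher and 0.113% lower. Their differences ran from -0.27, for HSPB11, to 0.19, for DNAJC25-GNG10, and 90.2% lay within 0.2 of 0, against 85.2% of all genes. The median over the 51 rows was -0.06 and the median over all genes was -0.06. Below 0 lay 37 of the 51 (72.5%), as did 70.2% of all genes. With the median of all genes as the reference, 26 lay below it and 25 above, so the direction of many rows depends on that reference. At 1.5-fold there was again none, against 0.37% of all genes higher and 0.498% lower. A difference of at least 1.2-fold was seen for HSPB11 alone, on the low side, where 5.61% of all genes lay, and for 0 rows on the high side, where 2.26% lay.

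**Figure D2:**
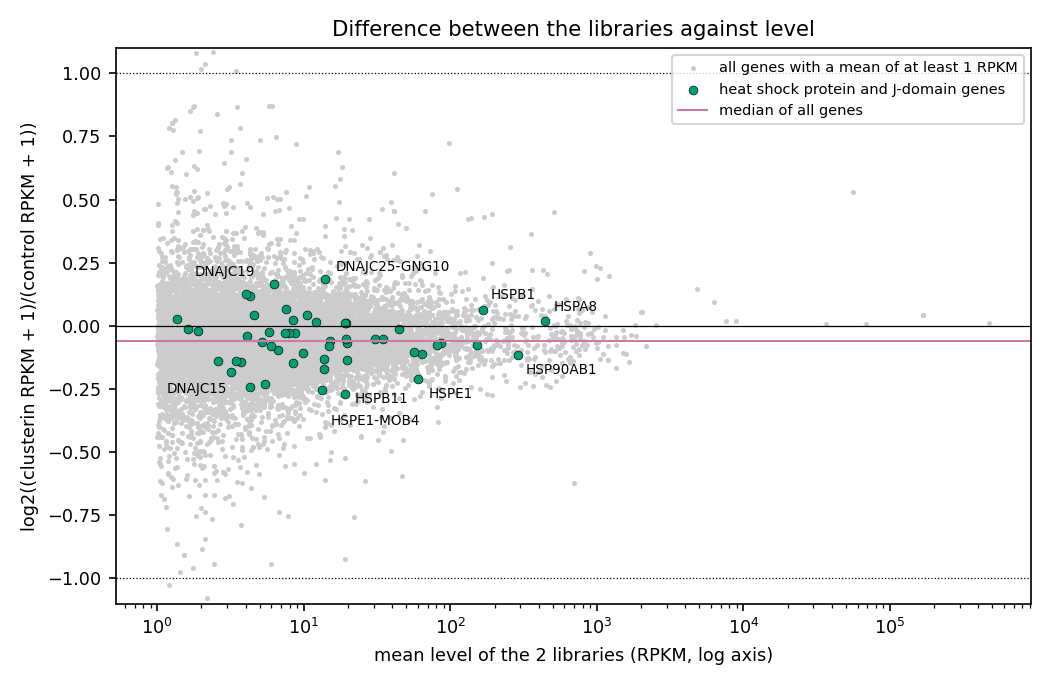
Difference between the libraries (log2 of clusterin over control, 1 RPKM added to each) against mean level (RPKM, log axis) for all measured genes (grey), with the 51 heat shock protein and J-domain rows in green. The green points lie between -0.27 and 0.19 within the grey cloud, around the pink line at the median of all genes of -0.06, and 22 other genes lie outside the axis.

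By family, the median difference was -0.11 for the 2 cytosolic HSP90 genes, -0.14 for HSPD1 and HSPE1, -0.02 for 6 measured HSP70 genes, -0.05 for 3 HSP110 genes and -0.06 for 4 measured genes of the small heat shock protein list. That list counts HSPB11 (-0.27), the intraflagellar transport subunit. Its other measured genes were HSPB1 (0.06), HSPB8 (0.02) and HSPB7 (-0.14), so its median depends on HSPB11. The median was -0.06 for 4 class A, -0.04 for 6 class B and -0.08 for 19 class C J-domain genes, and 0.01 for the 3 regulators. These medians lie on both sides of that of all genes, and the lists hold few genes.

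A general offset between the libraries was set beside counting error. The median ratio of the 13713 genes that had 100 reads or more was 0.950, and the 6 rows above 10000 reads had a median log2 ratio of reads of -0.07, as did the 587 genes at that depth. At other depths the medians differed in both directions. From 300 to 1000 reads, 17 rows had -0.05 and all genes -0.08. From 1000 to 3000 reads, 15 rows had -0.03 and all genes -0.07. From 3000 to 10000 reads, 15 rows had -0.08 and all genes -0.06. Of the 71 rows, 15 had a counting interval wholly below 1, where 19.9% of all genes with reads had one, and 3 had it wholly above 1, where 3.96% did. Against 0.950, 6 rows lay wholly below (8.53% of all genes), namely HSP90AB1, HSPE1, HSPE1-MOB4, HSPB11, DNAJC14 and DNAJC15. Wholly above 0.950 lay 9 rows (9.38% of all genes), namely HSPA8, HSPB1, HSPA4L, CHORDC1, DNAJB7, DNAJB14, DNAJC5, DNAJC19 and DNAJC25-GNG10. The spread between the libraries exceeded counting error: in the class of 1000 to 3000 reads the robust SD of all genes was 1.61 times that error, and above 10000 reads it was 3.22 times. The narrow intervals of abundant genes such as HSP90AB1 and HSPA8 therefore understate their error.

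**Figure D3:**
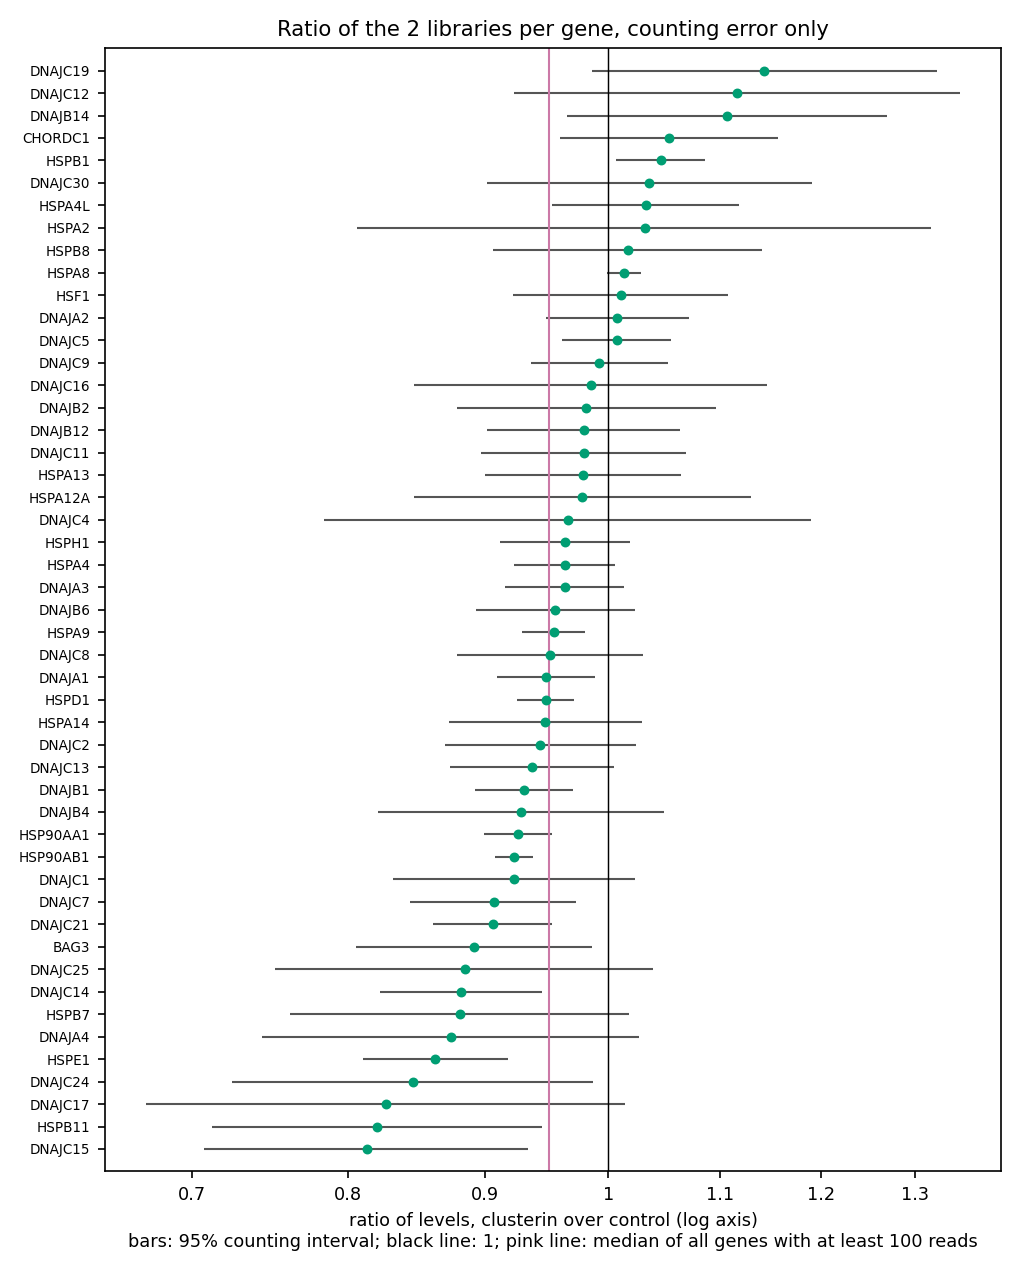
Ratio of the clusterin to the control level for the 49 measured genes, readthrough rows left out, with 95% counting intervals (bars), on a log axis. Most intervals cross the pink line at the median ratio of all genes of 0.950; HSP90AB1, HSPE1, HSPB11, DNAJC14 and DNAJC15 lie wholly below it, and HSPA8, HSPB1, HSPA4L, CHORDC1, DNAJB14, DNAJC5 and DNAJC19 wholly above it.

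By the q-values of the authors' deposited table, 11 of 71 rows passed 0.05 on the low side, where 10.4% of all genes above 0 were, and 1 row, DNAJB7, on the high side, where 1.63% were. At q below 0.01 there were 9 on the low side (5.76% of all genes) and DNAJB7 on the high side (0.746%). The 11 were HSP90AB1 (q = 4.48e-20), HSP90AA1 (1.13e-05), HSPD1 (0.000469), HSPE1 (0.000117), HSPE1-MOB4 (2.43e-07), HSPA9 (0.0098), HSPB11 (0.0447), DNAJB1 (0.00971), DNAJC14 (0.00604), DNAJC15 (0.0301) and DNAJC21 (0.0029), all as given in the authors' deposited table. These q-values compare 2 libraries and take account of counting error only. Here and below, the shares of all genes called by the authors' q-values are over 20642 genes above 0, of which 13713 had at least 100 reads. Shares called by the test on recovered reads are over the 20462 genes with recovered reads. In genes with few reads a small difference cannot pass. The shares are not matched to the depth of the rows, so a higher share among abundant rows is not read as an excess. An Audic-Claverie test on the recovered reads, which also compares libraries only, made the same 12 calls at the deposited totals, where the share of all genes called was 1.53% upward and 10.4% downward. The reads had been recovered by matching this same test to the deposited p-values, so that agreement was fixed in advance and adds no support. Once the general offset was removed by setting the median log2 ratio to 0, it called 3 rows lower, HSP90AB1, HSPE1 and HSPE1-MOB4, where 2.48% of all genes were called, and 4 higher, HSPA8, HSPB1, DNAJB7 and DNAJC25-GNG10, where 3.64% were. HSP90AA1, HSPD1, HSPA9 and DNAJB1 were among those no longer called.

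Textbook targets of HSF1 lay on both sides of 0. Of the 19 genes on that list, which also holds HSPA1L, 14 were measured, 9 below and 5 above 0, with a median of -0.08, and none was 2-fold apart. HSPE1 (-0.21), BAG3 (-0.15), HSP90AB1 (-0.12), HSP90AA1 (-0.11) and DNAJB1 (-0.10) were the lowest on the log2 scale. CHORDC1 (0.07), HSPB1 (0.06), HSPA4L (0.04), HSPB8 (0.02) and HSPA8 (0.02) were the highest. By the authors' deposited table, 5 of the 19 had q below 0.05, all lower, where 10.4% of all genes were called lower. Of these, HSP90AA1, HSPD1 and DNAJB1 were not called once the offset was removed.

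Heat shock elements, the sites that HSF1 binds, were looked for in the RefSeq promoters (GRCh38.p14, 250 bases before to 50 after the transcript start) of 61 of the 70 genes. An element of 3 units was taken as GAA, TTC and GAA in that order, or the reverse complement TTC, GAA and TTC, with any 2 bases (NN) between units. It occurred in 5 of 61 promoters (8.20%), against 171 of 34943 promoters of the same length (0.489%). They belong to HSPA8, HSPA6, CHORDC1, DNAJB6 and DNAJA1, where it lies after the start. The stretches before the start that hold it are shown, 5′ to 3′ on the strand of the gene, because they place the most abundant member beside a nearly silent one. Capitals mark the element. Distances are from the RefSeq start, which differs from the start in the deposited table for some genes: the stretch of CHORDC1 and the nearer one of HSPA8 lie inside the listed gene, and the farther one of HSPA8 crosses its listed start.
HSPA8, 250 to 198 bases before the start (chr11:123062334-123062386, minus strand): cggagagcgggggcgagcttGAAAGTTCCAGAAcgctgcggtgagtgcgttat
HSPA8, 75 to 23 bases before the start (chr11:123062159-123062211, minus strand): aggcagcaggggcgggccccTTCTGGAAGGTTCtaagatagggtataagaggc
CHORDC1, 80 to 18 bases before the start (chr11:90223067-90223129, minus strand): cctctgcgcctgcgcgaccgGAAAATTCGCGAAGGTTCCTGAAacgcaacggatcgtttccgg
DNAJB6, 151 to 99 bases before the start (chr7:157336853-157336905, plus strand): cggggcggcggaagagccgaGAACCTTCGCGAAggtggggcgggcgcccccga
HSPA6, 94 to 42 bases before the start (chr1:161524446-161524498, plus strand): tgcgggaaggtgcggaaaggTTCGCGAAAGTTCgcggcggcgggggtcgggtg

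Genes with these letters included the member with the highest level and a member below the minimum. HSPA8 stood at 439 and 445 RPKM, DNAJA1 at 83.3 and 78.9, DNAJB6 at 15.4 and 14.7, CHORDC1 at 7.30 and 7.69 and HSPA6 at 0.266 and 0.205. Their differences on the log2 scale were 0.02, -0.08, -0.06, 0.07 and -0.07, on both sides of the median of all genes. The promoter of CHORDC1 held 3 overlapping elements in 1 run. A pair of units, GAANNTTC or TTCNNGAA, which every 3-unit element also contains, occurred in 15 of 61 promoters (24.6%) against 13.5% of all promoters. The 3-unit match is strict: HSP90AA1, DNAJB1, HSPB1 and HSPB8, all on the textbook list, were searched and held none. A gene not named here may lack the exact letters or have had no promoter searched.

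HSPA1A and HSPA1B hold only a pair of exact units in this window, with TATAAA downstream. A unit with a mismatch was not counted, such as the letters gac that follow the pair at the same spacing. The 2 promoters are shown because these stress-inducible copies stood low in both libraries and are nearly identical here. Capitals mark both matches. The stretch of HSPA1A crosses the start listed in the deposited table.
HSPA1A, 126 to 5 bases before the start (chr6:31815417-31815538, plus strand): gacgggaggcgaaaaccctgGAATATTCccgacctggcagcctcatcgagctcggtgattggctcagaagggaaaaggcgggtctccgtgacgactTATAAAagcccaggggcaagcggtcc
HSPA1B, 125 to 4 bases before the start (chr6:31827613-31827734, plus strand): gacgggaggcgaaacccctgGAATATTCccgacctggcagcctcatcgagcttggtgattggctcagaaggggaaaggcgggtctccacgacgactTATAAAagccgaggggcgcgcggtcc

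Aligned over 251 positions before the start, the promoters of HSPA1A and HSPA1B were identical at 235 (93.6%). The RefSeq promoter of HSPA1L, which is read from the opposite strand and lies well inside the span the table lists for it, holds the very bases of the HSPA1A pair of units (chr6:31815437-31815444). TATAAA or TTTATA occurred in 10 of 61 promoters (16.4%) against 11.6% of all, and CCAAT or ATTGG in 20 (32.8%) against 34.6%. A match is a description of letters only, and no binding was measured.

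**Figure D4:**
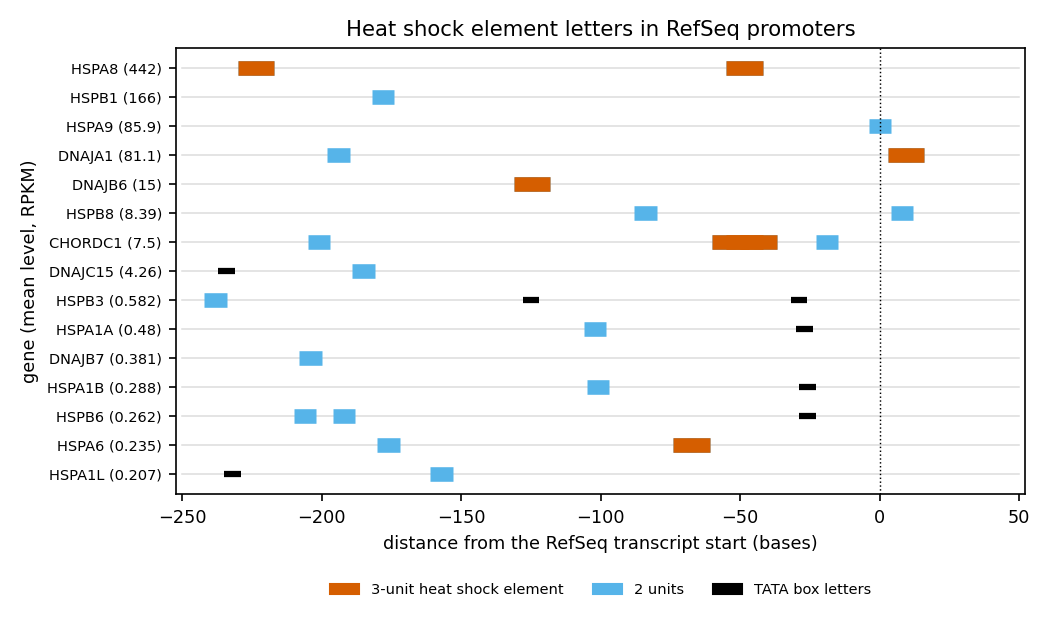
Position of 3-unit heat shock elements (orange), pairs of units (blue) and TATA box letters (black) in the RefSeq promoters of the 15 genes that hold a pair of units, as distance from the transcript start in bases, ordered by mean level (RPKM, in brackets). The genes run from HSPA8, at 442 RPKM, to HSPA1L, at 0.207 RPKM, and HSPA6, with a 3-unit element, stands near the low end.

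The partner lists of the chaperones lay close to the median of all genes. Of 20 HSP90 co-chaperones 19 were measured, with a median of -0.07, and none was 2-fold apart. By the authors' deposited table, 5 of them had q below 0.05 on the low side (10.4% of all genes) and 1 on the high side (1.63% of all genes). CDC37L1 (10.3 and 8.11 RPKM, ratio 0.790, 0.700 to 0.891) and FKBP5, an immunophilin (3.74 and 3.11), were lowest, and CDC37, which loads kinases on HSP90 (76.8 and 82.1 RPKM, ratio 1.07, 1.03 to 1.11), was highest. HSP70 exchange factors and partners had 17 of 18 measured and a median of -0.08, with BAG4 (6.12 and 5.15 RPKM) and SEC63 (3.66 and 3.06) lowest and HSPBP1 and STUB1, the ubiquitin ligase CHIP, highest, at log2 differences of 0.09 and 0.08. Calls on the low side in the authors' deposited table numbered 5 of these 18, beside 10.4% of all genes, with none on the high side, beside 1.63%.

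The CCT chaperonin, which folds actin and tubulin, had 8 of 9 genes measured, all below 0, with a median of -0.05, which lies above that of all genes. CCT7 (113 and 104 RPKM) and CCT8 (74.5 and 68.9) were lowest and TCP1 and CCT2 nearest to 0, and 4 of the 9 were called lower in the authors' deposited table, against 10.4% of all genes. The measured CCT genes are abundant, and that share is not matched to their depth. Prefoldin genes had 8 of 9 measured and a median of -0.08, with PFDN4 (9.42 and 7.64 RPKM) and PDRG1 (9.52 and 7.79) lowest and PFDN2 and UXT at 0.01, and 3 were called lower in the authors' deposited table, against the same 10.4%. Of the other heat shock factors and their regulators 5 of 8 were measured, with a median of -0.08. HSF2 stood at 3.51 and 2.88 RPKM (ratio 0.822, 0.702 to 0.962), HSBP1, a negative regulator of HSF1, at 28.1 and 26.0, HSF4 at 1.35 and 1.25 and TTC5 at 2.66 and 2.78. In the authors' deposited table the calls on that list were EEF1A1 on the low side and HSF2BP on the high side. The shares of all genes called were 10.4% lower and 1.63% higher. EEF1A1, the translation factor that also takes part in HSF1 activation, stood at 2222 and 2100 RPKM, from 298635 and 244882 reads. Its ratio of 0.945 was close to 0.950, the median ratio over genes with at least 100 reads. HSF2BP lay below the minimum (0.523 and 0.936 RPKM, from 38 and 59 reads).

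All 15 other genes of protein quality stress were measured, with a median of -0.06. HSPBAP1 (2.74 and 2.11 RPKM) and RGS2 (13.3 and 11.1) were lowest, and IER5, an activator of HSF1 (25.1 and 28.0 RPKM, ratio 1.12, 1.05 to 1.19), and SERPINH1, the collagen chaperone (35.3 and 37.5), were highest. The authors' deposited table had 5 of them lower (10.4% of all genes) and 1 higher (1.63%) at q below 0.05. The 7 endoplasmic reticulum chaperones had a median of -0.07, with DNAJB9 (4.78 and 4.22 RPKM) and HSP90B1 (133 and 125) lowest and DNAJC3 and DNAJB11 highest, and 2 were called lower in the authors' deposited table, again beside 10.4% of all genes. None of these partner list calls was recounted with the offset removed, and the shares of all genes beside them were not matched for depth.

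**Figure D5:**
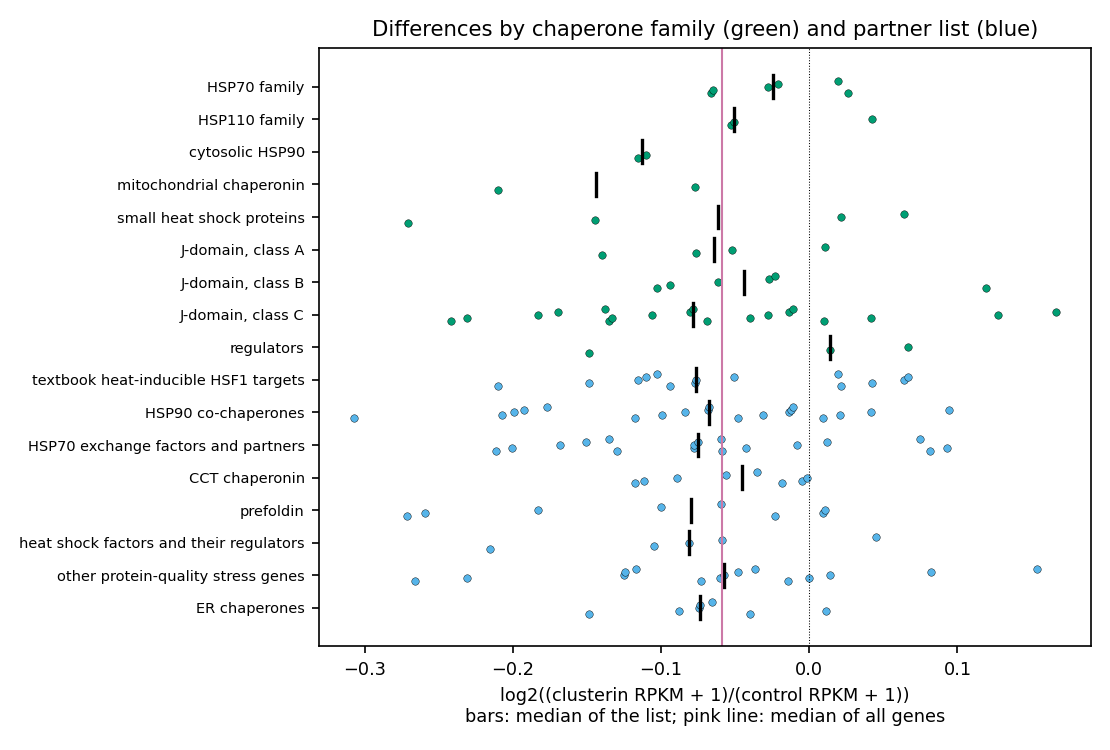
Log2 difference of each measured gene (points) by chaperone family (green) and partner list (blue), with the median of each list as a black bar and the median of all genes, -0.06, as a pink line. The medians of the partner lists lie between -0.08 and -0.05, and the mitochondrial chaperonin (-0.14) and cytosolic HSP90 (-0.11) lists, of 2 genes each, lie lowest.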

How the data were processed

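PolyA-selected RNA of D407 cells was sequenced from 1 control and 1 clusterin-treated library, grouped by the agent in the labels. The submitters' processing notes name Bowtie, TopHat, Cuffdiff and hg19, without versions or roles; the sources used here do not give how reads were counted, or whether by strand. The deposited gene table holds levels for each library, without a named unit and read here, from their values, as RPKM. It also holds a log2 fold change and p-values and q-values by the authors. The 2 totals and each gene's length were searched, from 30 to 30000 bases, for whole reads (within 0.003 reads before rounding error) that also return the deposited p-value within 2%. Reads were recovered for 20462 of 20642 genes above 0 (99.1%).

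From these reads, ratios were given with exact Clopper-Pearson intervals at 95%, which cover counting error only. Reads copied by PCR carry no molecular identifiers, so they are not independent. With 1 library per group no test between conditions was made. Differences used a pseudocount of 1 RPKM and a minimum mean of 1 RPKM, and a difference was counted at 2-fold. An Audic-Claverie test on the recovered reads compares libraries only. The reads were matched to the deposited p-values through this same test. At the deposited totals it is therefore no independent check of the authors' q-values, and it was used to remove the general offset. Python 3.11.15, pandas 2.3.3, numpy 2.4.6, SciPy 1.17.1 and matplotlib 3.10.9 were used.

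The genes named were HSF1, BAG3, CHORDC1, CRYAB, the textbook HSF1 targets, the 10 highest by mean level, the 6 highest and 6 lowest differences among measured rows, the extremes of each family, and the 2 highest and 2 lowest of each partner list; others were named after their values were seen. A gene that this rule would name is not reported here. The members and lists were chosen with earlier results of these data known. Promoter sequences are from RefSeq (GRCh38.p14); protein sequences were not used here.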

Additional observations from a re-analysis of the deposited data

How the results depend on the processing

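No paired analysis was possible because each group holds 1 library and the labels carry no replicate numbers. The median log2 difference of the measured rows was -0.06. It was -0.047 with a pseudocount of 5, -0.047 without a minimum level, -0.015 after quantile normalization and -0.0023 with the median of all genes set to 0, where 26 rows lay below 0 and 25 above. A pseudocount of 0.1, a minimum of 5 RPKM, leaving out the readthrough rows and a minimum of 100 reads gave between -0.07 and -0.06. No row was 2-fold apart under any of these settings or at 1.5-fold, and 1 was at 1.2-fold. At 1.2-fold, 5.61% of all measured genes were lower and 2.26% higher. Without a minimum level the pseudocount of 1 RPKM still pulled low rows toward 0. DNAJB7, with a ratio of reads of 2.58, was therefore not counted as 2-fold apart. The 12 calls at q below 0.05 in the authors' deposited table numbered 10 at q below 0.01. The shares of all genes were 10.4% lower and 1.63% higher at 0.05, and 5.76% and 0.746% at 0.01. The test on recovered reads with the median log2 ratio set to 0 made 7 calls: DNAJB7, HSP90AB1, HSPE1 and HSPE1-MOB4 are in both sets, HSPA8, HSPB1 and DNAJC25-GNG10 are not among the 12, and the rest of the 12 were lost. Of all genes with recovered reads, that test called 2.48% lower and 3.64% higher. With differences centred on the median of all measured genes, HSPA8 stood at 0.08, HSPB1 at 0.12, HSP90AB1 at -0.06, HSP90AA1 at -0.05, HSPD1 at -0.02 and HSPA9 at -0.01. With HSPA1A and HSPA1B divided by their gene spans, a setting chosen after seeing the data, the median over 53 rows was -0.05. Depth limits the low rows: the counting interval of HSPB9, from 5 and 4 reads, ran from 0.183 to 4.28, and that of CRYAB from 0.525 to 2.99.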

Other observations

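The length excess of HSPA1A and HSPA1B was seen in other genes of chromosome 6. Of all rows, 208 of 20462 genes with recovered reads (1.02%) had a recovered length more than 1.02 times their listed span, and 125 of these lay on chromosome 6, where they made up 11.9% of 1051 genes. BAG6, an HSP70 partner in the same region, was divided by 27003 bases against a span of 21740 and stood at 0.692 and 0.607 RPKM. The cause was not tested.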
